A study of Mus musculus with 6 samples.

Results

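The 3 SREB receptors Gpr85, Gpr27 and Gpr173, and 2610001J05Rik, a gene next to Gpr85 on chromosome 6, were described in striatal RNA of WT and Shank3 TG mice. They are 4 of the 46078 genes in the deposited table, found by Ensembl identifier through the GENCODE M21 annotation. Gpr85 and 2610001J05Rik were chosen from these same libraries because their values were higher in TG than in WT mice, so their change is given as a description with no test. Gpr27 and Gpr173 were included as the relatives of Gpr85, whatever their own change. RNA sequencing of the striatum compared 3 WT with 3 TG mice, 1 library per mouse. All 6 mice were 12-week-old males on the C57BL/6J background, and the TG mice carried a transgene for Shank3, a scaffold protein of excitatory synapses, fused to EGFP. The promoter and insertion site of the transgene are not given in the sources used here. The tissue was whole dissected striatum, in which fewer cells of a type and less RNA per cell cannot be told apart.

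The SREB receptors (super-conserved receptors expressed in brain) are class A G protein-coupled receptors, proteins with 7 membrane-spanning helices that pass signals from outside the cell to G proteins and arrestins. They are called orphan receptors because no ligand has been generally accepted for them, and they are among the most conserved receptors of vertebrates. Gpr85, also named SREB2, is expressed mainly in neurons and has been linked to hippocampal neurogenesis and brain size. Gpr27 (SREB1) is found in brain and in pancreatic islets, and Gpr173 (SREB3) has been proposed as a receptor for the peptide phoenixin. 2610001J05Rik is a gene known by its cDNA clone name, and no function is stated for it here.

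In GRCm38, Gpr85 (ENSMUSG00000048216) lies on the minus strand at chr6:13834458-13839942, and its coding sequence of 370 codons sits in 1 of the 4 exons of its first annotated transcript. 2610001J05Rik (ENSMUSG00000052419) is on the same strand at chr6:13867735-13871518, with 27792 bases between the gene bodies. It is annotated as protein coding, but its open reading frame of 59 codons makes up 5.6% of its first transcript. Gpr27 (ENSMUSG00000072875) is a single-exon gene of 379 codons on the plus strand, at chr6:99692679-99695066. Gpr173 (ENSMUSG00000056679) has 373 codons in 1 of 3 exons, on the minus strand at chrX:152343598-152368704.

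The coding sequences of the receptors were aligned over their full length to show how far reads of one could be taken for another. Gpr85 and Gpr173 were the closest pair, with 66.5% of 1103 aligned bases identical, followed by Gpr27 and Gpr173 with 64.6% of 1105 and Gpr85 and Gpr27 with 59.9% of 1097. The longest stretches shared without a mismatch between the first annotated transcripts are printed here from GRCm38 in transcript direction. All are in coding sequence and are much shorter than the sequencing reads, so no whole read could match the first transcripts of 2 receptors without a mismatch. They lie at chr6:13836123-13836134 in Gpr85 and chr6:99693457-99693468 in Gpr27, at chr6:13836550-13836567 in Gpr85 and chrX:152347116-152347133 in Gpr173, and at chr6:99693561-99693581 in Gpr27 and chrX:152346579-152346599 in Gpr173.
Gpr85 and Gpr27: tgggcatcaggc
Gpr85 and Gpr173: ttctgcatcagcgtcacc
Gpr27 and Gpr173: ctgctcttcctgctcctctgg

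The promoters of Gpr85 and 2610001J05Rik are shown because these neighbouring genes had similar log2 differences from their WT means over the 6 libraries. That likeness is partly set by the choice of both for their rise. Each window covers 250 bases before and 50 bases after the start site on the minus strand, from the RefSeq table for GRCm38.p6, which held 3 of the 4 genes (Gpr27 was not matched). The searches were for the CCAAT box (letters CCAAT), the core of cAMP response elements (TGACG), the GC box (GGGCGG) and the TATA box (TATAAA), on both strands. No matches overlapped, and the capitals mark them. The Gpr85 window is chr6:13839893-13840192 and the 2610001J05Rik window is chr6:13871469-13871768.
Gpr85: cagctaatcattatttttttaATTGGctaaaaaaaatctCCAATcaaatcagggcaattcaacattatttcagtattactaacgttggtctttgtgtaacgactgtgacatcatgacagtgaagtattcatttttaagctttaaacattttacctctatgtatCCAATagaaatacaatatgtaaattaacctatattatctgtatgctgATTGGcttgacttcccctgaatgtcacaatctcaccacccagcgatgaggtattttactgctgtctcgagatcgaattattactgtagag
2610001J05Rik: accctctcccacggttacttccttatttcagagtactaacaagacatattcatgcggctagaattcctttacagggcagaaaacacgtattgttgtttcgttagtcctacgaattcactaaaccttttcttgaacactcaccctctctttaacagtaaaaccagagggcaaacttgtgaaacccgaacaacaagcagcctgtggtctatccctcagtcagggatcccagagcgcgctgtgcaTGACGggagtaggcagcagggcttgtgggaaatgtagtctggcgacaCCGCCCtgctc

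The Gpr85 window was rich in A and T, with 33.3% GC against a median of 52.7% over 32851 promoters, and only 2.45% of promoters had a lower GC content. It held 4 matches to CCAAT, a sequence read by the NF-Y factor, beginning 229, 211, 87 and 40 bases before the start site. At least 1 such match was present in 37.4% of all promoters and at least 4 in 1.06%. The 2610001J05Rik window had 48.7% GC, with 1 match to the cAMP response core 8 bases before the start site and 1 GC box 39 bases after it. These letters occurred in 20.8% and 35.7% of all promoters. TATAAA, present in 13.6% of promoters, was in neither window, and the pair had none of the 4 motifs in common. The Gpr173 window (chrX:152368669-152368968, minus strand) had 59.7% GC and no match to any of the 4.

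Values are normalized read counts, the reads of a gene scaled by a size factor per library that DESeq2 estimated. The 6 libraries held between 27689589 and 36647626 counted reads. Shank3, the overexpressed gene, was at 29891, 28309 and 26044 in the TG mice and at 13807, 12918 and 13865 in the WT mice, so every library matched its label. It was the 1 gene of 17605 (0.00568%) that passed limma with Benjamini-Hochberg adjustment (log2 difference 1.05, adjusted p = 7.04e-05), while 4.31% of the genes had an unadjusted p under 0.05. Defining markers of medium spiny neurons, the main striatal cell type, were all detected, and their summed normalized read counts were 147529 to 202327 in TG and 176643 to 200646 in WT mice, lowest in TG replicate 1 and highest in TG replicate 2. Of these 14 markers 12 were lower in TG mice (median log2 difference -0.13), and none passed the test with or without adjustment. The choroid plexus markers, of a tissue that borders the striatum in the ventricle, summed to 15729, 2016 and 655 in TG replicates 1, 2 and 3 and to between 572 and 932 in the WT mice. These p-values measure the spread between 3 mice per genotype.

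Gpr85 had 1373, 1503 and 1474 normalized read counts in TG replicates 1, 2 and 3, and 1119, 1082 and 1033 in WT replicates 1, 2 and 3. All TG values lay above all WT values, with the lowest TG value (1373) and the highest WT value (1119) both in replicate 1. The means were 1450.0 ± 68.3 in TG and 1078 ± 43.4 in WT mice (SD, n = 3 each), a log2 difference of 0.43 (SE 0.06), or 1.34-fold. These values rest on 1337 to 1600 reads per TG library and 978 to 1157 per WT library. The SD within groups was 0.0637 on the log2 scale, where read counting alone would give 0.0411 and the median over all tested genes was 0.108.

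2610001J05Rik was at 762, 762 and 820 normalized read counts in the TG mice and at 563, 594 and 537 in the WT mice. Here too the groups did not overlap, which was so in the same direction for 5.06% of all tested genes. Since both genes were picked on this contrast, nothing is read from that count. The means were 781 ± 33.4 and 565 ± 28.5 (SD, n = 3 each), a log2 difference of 0.47 (SE 0.07) or 1.38-fold, from 678 to 888 reads in the TG and 492 to 635 in the WT libraries. The SD within groups of 0.067 was close to the 0.0566 of read counting alone. The orders within each genotype differed between the neighbours: the highest TG value was in replicate 2 for Gpr85 and in replicate 3 for 2610001J05Rik, and the highest WT value was in replicate 1 and replicate 2, respectively.

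Gpr27 had 613, 605 and 557 normalized read counts in TG and 588, 710 and 619 in WT mice. The groups overlapped, with the highest WT value in replicate 2 and the lowest TG value in replicate 3. The means of 591 ± 30.1 (TG) and 639 ± 63.1 (WT, SD, n = 3 each) gave a log2 difference of -0.11 (SE 0.08, 95% interval -0.29 to 0.07), which did not pass limma with Benjamini-Hochberg adjustment (adjusted p = 0.971). A two-sided exact permutation test returned p = 0.4, where the smallest value possible with 3 against 3 is 0.1. On the linear scale the interval runs from 0.818-fold to 1.05-fold.

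Gpr173 was at 462, 474 and 560 normalized read counts in the TG mice and at 500.1, 515 and 482 in the WT mice. TG replicate 3 was the highest of all libraries and TG replicate 1 the lowest, so that the WT values lay inside the TG range. Both means were 499, with an SD of 53.2 in TG and 16.7 in WT mice (n = 3 each). The log2 difference of -0.01 (SE 0.08, 95% interval -0.19 to 0.18, or 0.875-fold to 1.13-fold) did not pass limma with Benjamini-Hochberg adjustment (adjusted p = 0.997, exact permutation p = 1, two-sided). The sign turned to a log2 difference of 0.05 without TG replicate 1, 0.03 without TG replicate 2 and 0.02 without WT replicate 2. Gpr173 shares 122 exon bases with 3010001F23Rik on the opposite strand, and since it is not given in the sources used here whether HTSeq used strand, reads there cannot be told apart. 3010001F23Rik itself was at 39.3 to 55.1 normalized read counts.

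**Figure D1:**
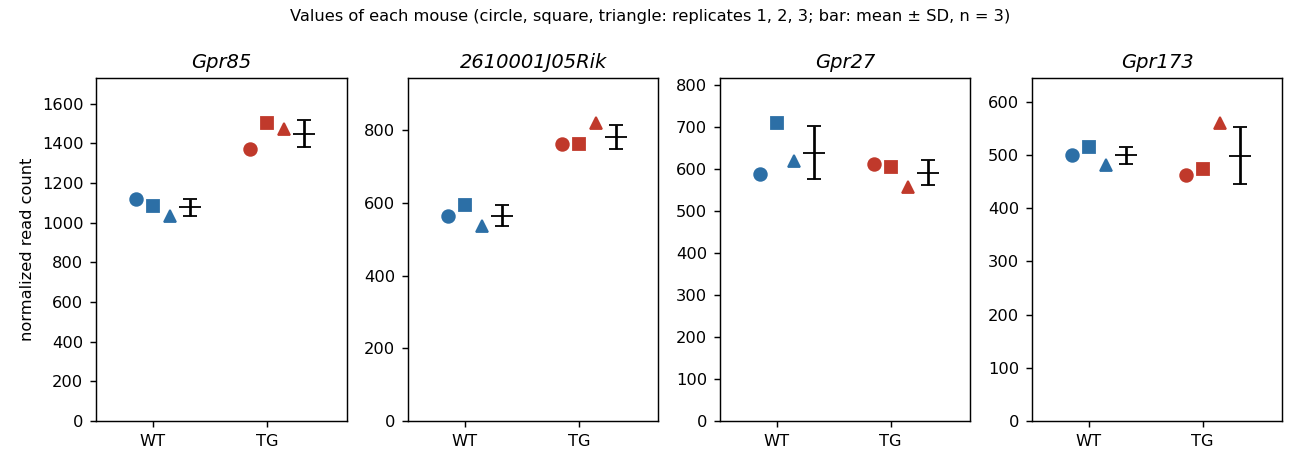
Normalized read counts (vertical axes) of Gpr85, 2610001J05Rik, Gpr27 and Gpr173 in the 3 WT and 3 TG mice, with points for mice and bars for the mean and SD. The TG points of Gpr85 (1373 to 1503) and 2610001J05Rik (762 to 820) lie above all WT points, while the groups of Gpr27 and Gpr173 overlap.

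To compare levels between genes, normalized read counts were divided by the length of all annotated exons in kb. On that scale and over all 6 mice, Gpr85 was at 309.6 per kb, Gpr27 at 257.7, 2610001J05Rik at 177.8 and Gpr173 at 97.7, against a median of 120.65 over the tested genes. Among 44 orphan receptors tested, ordered by their mean level per kb in the WT mice, Gpr27 was ranked 10th, Gpr85 11th and Gpr173 20th. In the TG mice Gpr85 was ranked 9th, Gpr27 11th and Gpr173 21st. Gpr85 was below Gpr27 and Gpr12 in the WT order and above both in the TG order. The WT order of Gpr85 and Gpr27 depends on the length used. With the length of the first annotated transcript Gpr85 was at 294 and Gpr27 at 268 per kb in WT mice. Gpr12 was at 293 ± 8.26 per kb in WT and 265 ± 25.6 in TG mice (SD, n = 3 each). The rank of Gpr85 in the TG mice includes the rise for which it was chosen.

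Within the WT striatum Gpr85 and Gpr27 had similar levels, 264 ± 10.6 and 268 ± 26.4 per kb, and the ratio of Gpr85 to Gpr27 was 1.11, 0.892 and 0.975 in the 3 mice. Their order therefore differed between WT mice and was not separated by the spread. In the TG striatum the levels were 355 ± 16.7 and 248 ± 12.6 per kb, with ratios of 1.31, 1.45 and 1.55, so that Gpr85 was the higher of the pair in each TG mouse. The TG ratios include the rise for which Gpr85 was chosen, so they are no separate result. Gpr173 was the lowest SREB receptor in all 6 libraries, at 97.7 ± 10.4 (TG) and 97.7 ± 3.26 (WT) per kb. With the length of the first annotated transcript, a choice made after the data were seen, the mean ratio was 1.11 in WT and 1.60 in TG mice.

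Of the summed per-kb level of the SREB receptors, Gpr85 made up 44.3%, 40.0% and 41.7% in WT replicates 1, 2 and 3, and 49.2%, 51.5% and 51.3% in the TG mice. The share of Gpr27 was 42.5% ± 2.51 in WT and 35.4% ± 2.21 in TG mice, and that of Gpr173 was 15.5% ± 0.311 and 13.9% ± 1.42 (SD, n = 3 each). These shares sum to a fixed total, so that a higher share of Gpr85 lowers the others by construction. The summed level itself was 700 ± 15.7 per kb in TG and 629 ± 29.8 in WT mice. Without Gpr85 it was 345 ± 2.22 and 365 ± 28.8. The TG shares and the sum of all the SREB receptors include the rise for which Gpr85 was chosen, so they are no separate result.

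**Figure D2:**
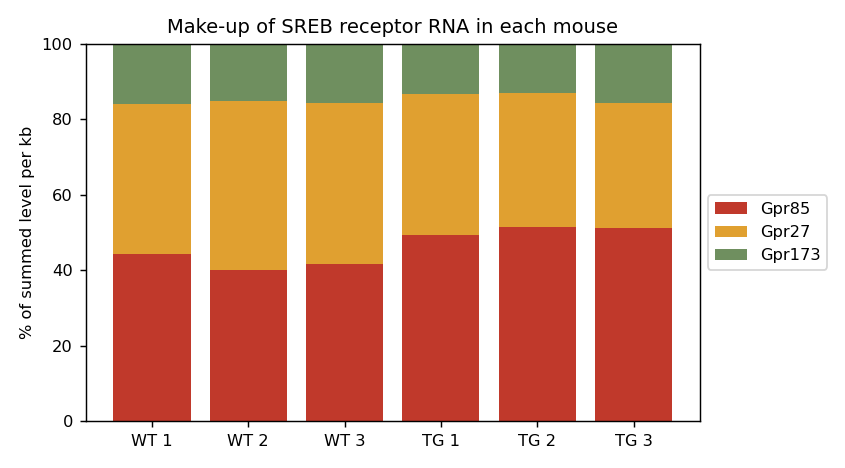
Share of the summed per-kb level of the SREB receptors (vertical axis, percent) taken by Gpr85, Gpr27 and Gpr173 in each of the 6 mice, as stacked bars from 0. The Gpr85 part runs from 40.0% to 44.3% in WT and from 49.2% to 51.5% in TG mice. The TG shares include the rise for which Gpr85 was chosen.

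The other genes around Gpr85 show whether the higher values extended along the chromosome. Of 13 further genes in the table within 1 Mb of Gpr85, 4 passed the filter of a mean of at least 10 normalized read counts, and the median of their log2 differences was -0.01 (-0.0018 over all tested genes). None passed limma, with or without adjustment, and none was called by edgeR, DESeq2 or voom. Bmt2, a regulator of mTORC1 signaling by methionine, was at 1089, 1077 and 1077 in TG and 1076, 1072 and 1009 in WT mice. These values did not overlap, as was so in the same direction for 5.06% of all tested genes, and the log2 difference was only 0.04 (SE 0.05). Tmem168 had a log2 difference of -0.05 (SE 0.07), and Tmem106b, a lysosomal membrane protein, one of 0.03 (SE 0.05).

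The nearest gene to 2610001J05Rik was the lincRNA 1110019D14Rik, which starts 8 bases from it on the opposite strand. It had 48.1, 39.3 and 61.3 normalized read counts in the TG and 68.7, 45.8 and 56.9 in the WT mice, and the groups overlapped. Its log2 difference of -0.21 (SE 0.21) had a 95% interval of -0.68 to 0.27, which holds 0. Differences within that interval remain compatible with these low counts.

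Around Gpr27, 6 of 17 genes within 1 Mb were tested, with a median log2 difference of 0.04 and a range of -0.13 to 0.22. None passed limma at an adjusted or unadjusted p under 0.05, nor edgeR, DESeq2 or voom, and the groups overlapped for each gene. The nearest tested genes were Eif4e3, a cap-binding protein (0.12, SE 0.09), and Foxp1, a transcription factor of medium spiny neurons (-0.10, SE 0.08) on one side, and the pseudogene Tpt1-ps3 (0.22, SE 0.12) and Rybp, a Polycomb protein (0.02, SE 0.05), on the other. Reads of Tpt1-ps3 can be shared with its parent gene, so its value is uncertain.

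Around Gpr173, 21 of 49 genes were tested, with a median log2 difference of 0.00 and a range of -0.44 to 0.31, and none passed limma with or without adjustment, nor edgeR, DESeq2 or voom. Rragb, a Rag GTPase of amino acid sensing, had all TG values above the WT values (log2 difference 0.13, SE 0.06), and Hsd17b10, a mitochondrial dehydrogenase, had all of them below (-0.10, SE 0.07). This is 1 gene in each direction, against 5.06% above and 5.05% below over all tested genes. Both were named after their values were seen. The nearest genes Tspyl2 (0.05, SE 0.05), Kantr (-0.09, SE 0.13), 3010001F23Rik (0.12, SE 0.18) and Shroom2 (0.02, SE 0.05) had groups that overlapped.

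**Figure D3:**
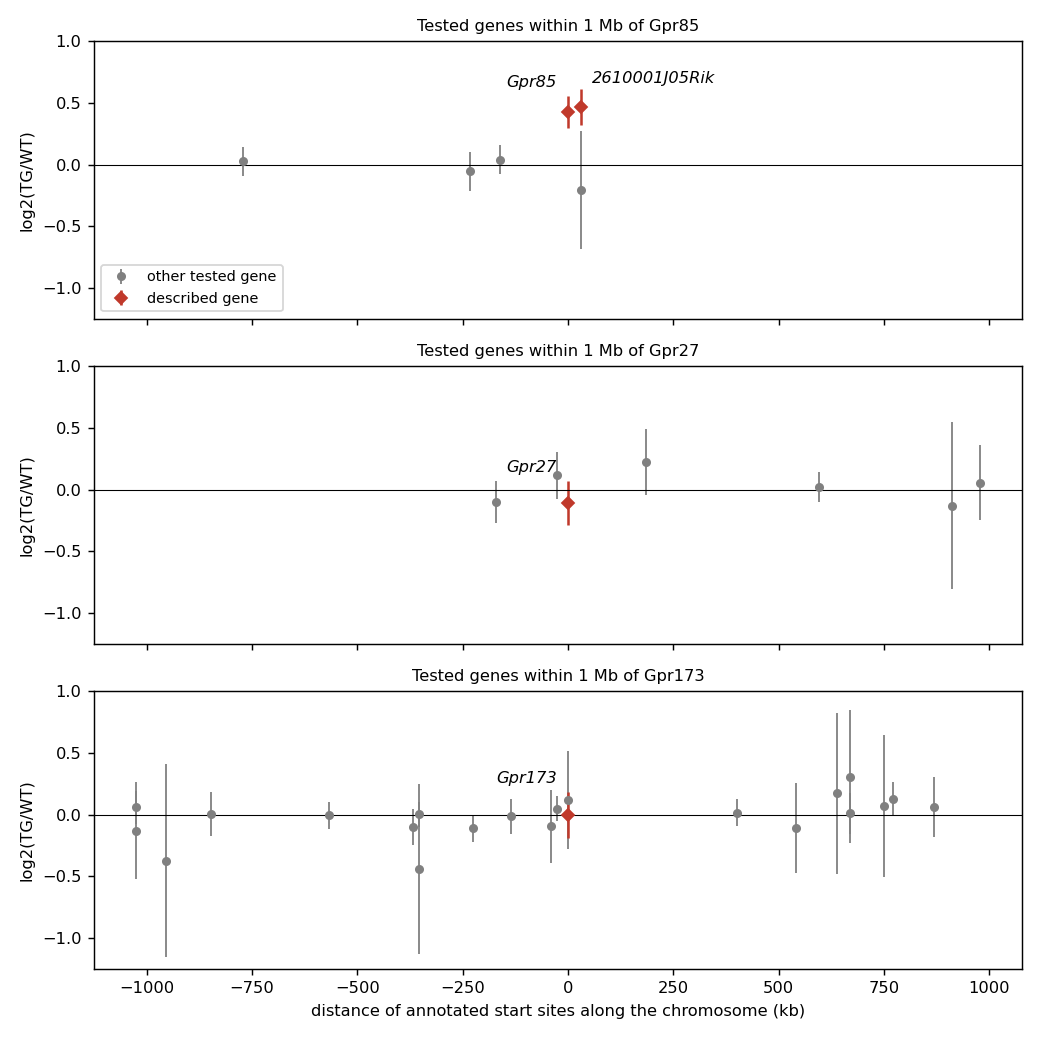
Log2 difference TG over WT (vertical axes) with its 95% interval for the tested genes within 1 Mb of Gpr85 (top), Gpr27 (middle) and Gpr173 (bottom), against the distance of their start sites from that receptor in kb (horizontal axis), with diamonds for the genes described here. In the top panel Gpr85 (0.43) and 2610001J05Rik (0.47), whose start sites are 31576 bases apart, stand above the other 4 genes (-0.21 to 0.04), and the genes of the other panels lie between -0.44 and 0.31.

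Other orphan class A receptors were set beside the SREB family. Of 57 listed, 56 were matched and 41 passed the filter. None passed limma with Benjamini-Hochberg adjustment, edgeR, DESeq2 or voom, and 1 of the 41 had an unadjusted p under 0.05, against 4.31% of all tested genes. The median log2 difference was -0.04, with 16 receptors higher and 25 lower (61.0% lower, against 50.8% of all tested genes). No receptor of this list had all TG values above all WT values (5.06% of all tested genes), and 1 had all of them below (5.05% of all tested genes).

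Among the most abundant of them per kb were Gpr37l1 (2314 per kb), found on astrocytes, Gpr162 (1251 per kb), Gpr6 (909 per kb), of indirect pathway neurons, and Gpr26 (672 per kb). Their log2 differences were -0.08, -0.02, -0.17 and 0.11, in that order, and none passed the test. Gpr6 is also in the list of medium spiny neuron markers.

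Most of the largest differences in the list were at low counts, while Gpr63 had a mean of 267 normalized read counts. Gpr50, related to melatonin receptors, had a log2 difference of 0.31 (SE 0.40), Gpr35 one of 0.30 (SE 0.24) and Gpr63 one of 0.27 (SE 0.12). Gpr63 was at 269, 325 and 281 normalized read counts in TG and 212, 238 and 278 in WT mice. Its groups overlapped. Gpr63 was the receptor that passed an unadjusted threshold of 0.05, but not limma with Benjamini-Hochberg adjustment (adjusted p = 0.971). The lowest were Gpr15 (-0.66, SE 0.34), Gpr160 (-0.49, SE 0.26) and Gpr139 (-0.46, SE 0.26). Gpr160 was the receptor whose TG values (15.4, 24.7 and 27.3) all lay below its WT values (37.8, 29.0 and 27.5), by a narrow margin. With means of 591 and 499 normalized read counts or more in each group, the SREB receptors were measured with smaller errors than these.

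**Figure D4:**
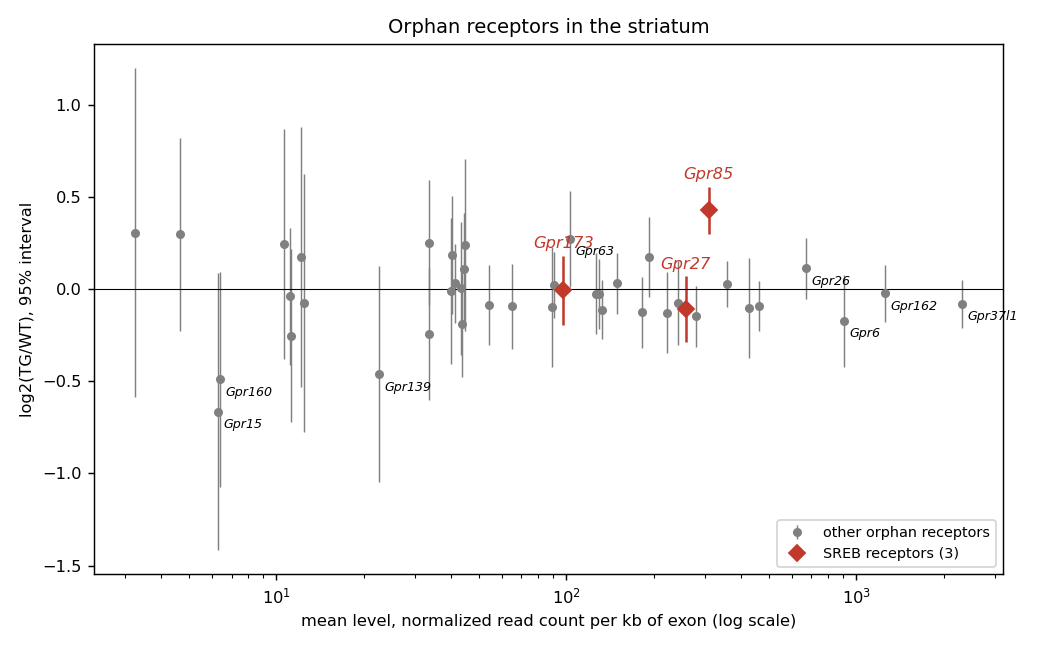
Log2 difference TG over WT (vertical axis) against the mean level in normalized read counts per kb (horizontal axis, log scale) for the tested orphan receptors reported here. Gpr85 (0.43) lies above all the others, of which Gpr50 is the highest at 0.31, while Gpr27 (-0.11) and Gpr173 (-0.01) lie within their range.

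Receptors of this class act through heterotrimeric G proteins, and are switched off by receptor kinases and arrestins. Of 30 gene names listed for these proteins, 28 were matched and tested. None passed limma with Benjamini-Hochberg adjustment, edgeR, DESeq2 or voom, and none had an unadjusted p under 0.05. The median log2 difference was -0.03, with 12 higher and 16 lower. The highest were the G protein gamma subunit Gng4 (0.20, SE 0.20) and the receptor kinase Grk4 (0.15, SE 0.14), and the lowest were the alpha subunit Gna15 (-0.28, SE 0.18) and the beta subunit Gnb2 (-0.09, SE 0.04). Gng4 was at 1907 normalized read counts in TG replicate 1 and between 968 and 1184 in the other libraries, so that the other TG values lay within the WT range. For Gnb2 the TG values (7587, 7626 and 7473) all lay below the WT values (8223, 7919 and 8017), as for 5.05% of all genes.

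Genes proposed as partners of the SREB receptors were also measured. Smim20, which encodes the precursor of phoenixin, had a log2 difference of -0.01 (SE 0.06). Gnrh1, the precursor of gonadotropin-releasing hormone, was detected at only 12.4 to 26.3 normalized read counts (0.20, SE 0.31), and Thop1, a peptidase that cleaves it, had a log2 difference of -0.03. The postsynaptic scaffold Dlg4 (PSD-95) had a log2 difference of -0.05 and the adhesion proteins Nlgn1, Nlgn2 and Nlgn3 had -0.01, -0.04 and -0.03. None of the 7 passed limma with or without adjustment, nor the other tools, and the groups overlapped for each.

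The genes most like Gpr85 and 2610001J05Rik were found among 12831 genes with a mean of at least 100 normalized read counts. The measure was the root mean square difference over the 6 libraries of the log2 values, each gene centred on its WT mean. By this measure 2610001J05Rik was the second nearest to Gpr85 (0.0641), just after Thsd7b (0.0637), and Gpr85 was the nearest to 2610001J05Rik. Since both were chosen for the same rise, their likeness is partly set by that choice. The other genes nearest to Gpr85 were the pseudogene Gm12346 (0.0907), Glra2 (0.103), a glycine receptor subunit, and the pseudogene Gm6863 (0.124). Those nearest to 2610001J05Rik after Gpr85 were Thsd7b (0.0811), Gm12346 (0.115), Sla (0.132), an adaptor protein of immune cell receptors, and Glra2 (0.134).

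Thsd7b, a thrombospondin-domain gene on another chromosome, was at 192, 187 and 192 normalized read counts in TG and 153, 149 and 137 in WT mice. Glra2 was at 554, 566 and 553 in TG and 468, 469 and 432 in WT mice. All TG values of both were above all WT values, as the search for such a profile fixes. For Gm12346 and Gm6863, reads can be shared with their parent genes, so their values are uncertain.

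**Figure D5:**
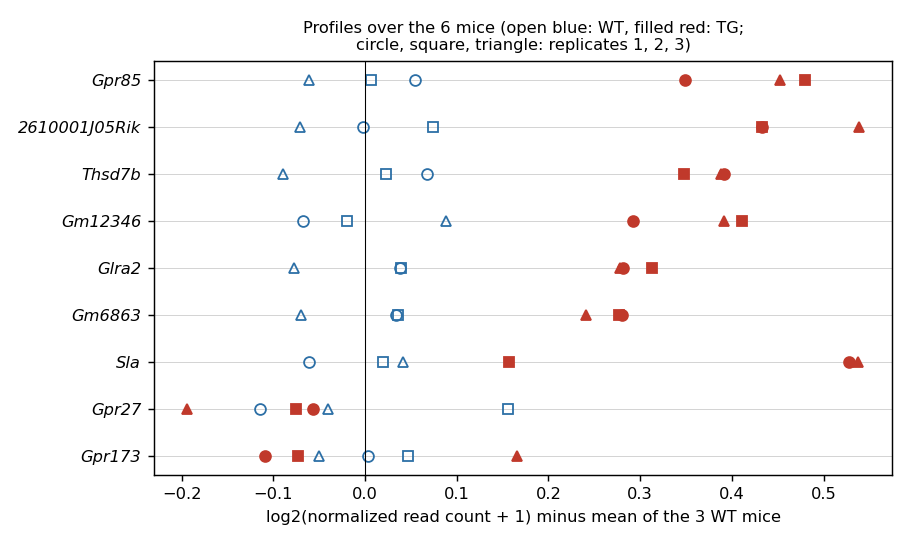
Log2 values of each mouse minus the mean of the 3 WT mice (horizontal axis) for Gpr85, 2610001J05Rik, the genes nearest to them in profile, Gpr27 and Gpr173, with open symbols for WT, filled symbols for TG and a shape for each replicate number. The genes chosen by profile lie to the right of 0 in every TG mouse, and Gpr27 and Gpr173 do not.

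Marker genes of other cell types were set beside the values of Gpr85 and 2610001J05Rik. Gpr85 was lowest among the TG mice in replicate 1, the library with the highest choroid plexus markers (Ttr, a plasma transport protein made there, at 13701 in it, 1122 and 204 in the other TG mice and 120 to 432 in the WT mice) and the lowest medium spiny neuron markers. Without that library the log2 difference was 0.47 for Gpr85 and 0.49 for 2610001J05Rik. With each mouse left out in turn, it ran from 0.40 to 0.47 and from 0.43 to 0.51. The choroid plexus sum of TG replicate 2 (2016) lay above the WT range (572 to 932), and that of TG replicate 3 lay within it. These differences come from the values for which both genes were chosen, and the part of tissue composition in them was not tested.

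The summed markers of cortical excitatory neurons were 36404 to 48200 in TG and 41344 to 46161 in WT mice, with a median log2 difference of 0.01 over 12 genes. Those of hippocampal granule neurons, where Gpr85 is known to be abundant, summed to 3554 to 4222 in TG and 3597 to 3959 in WT mice (median 0.17 over 7 genes, 5 higher and 2 lower). Neuroblast markers summed to 12556 to 14347 in TG and 12293 to 15704 in WT mice (median -0.10, 8 of 8 lower). The ranges of these 3 neuronal sums overlapped between the genotypes. Astrocyte sums (118238 to 124444 in TG, 115332 to 123616 in WT) and oligodendrocyte sums (246532 to 255823 in TG, 248895 to 281915 in WT) overlapped as well. Of the 8 astrocyte markers 4 were higher and 4 lower, 1 of the lower at an unadjusted limma p under 0.05 (4.31% of all tested genes). In 1 all TG values lay above all WT values and in 1 below (5.06% and 5.05% of all tested genes). Microglia markers summed to 11174 to 12059 in TG and 12103 to 12667 in WT mice, so these sums did not overlap. All 8 were lower (median log2 difference -0.11), 3 of them at an unadjusted p under 0.05 (4.31% of all tested genes), and 3 had all TG values below all WT values (5.05% of all tested genes). The choroid plexus list had 11 of 11 tested genes higher, 5 of them at an unadjusted p under 0.05 against 4.31% of all tested genes, and 3 with all TG values above all WT values against 5.06% (median log2 difference 1.36). No marker of any of the lists passed limma with adjustment, edgeR, DESeq2 or voom, no listed marker was at 0 in all libraries, and the part of cell composition in the values of Gpr85 and 2610001J05Rik was not tested.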

How the data were processed

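Striatal RNA of 3 WT and 3 Shank3 TG mice was sequenced as paired-end reads from TruSeq v2 libraries. Per the submitters' processing notes and the paper's methods, the authors used Trimmomatic 0.35, TopHat2 2.1.0 (GRCm38), HTSeq and DESeq2. The deposited signal is a read count per gene scaled by a size factor per library from DESeq2. The annotation release and the strand setting are not given in the sources used here.

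Whole read counts were recovered from the deposited values for 100% of values within 0.01. Of 46078 genes, 29430 had a read and 45229 were matched to GENCODE M21. The main test was limma 3.58.1 (R 4.3.3) on log2(value + 1), with a trend of the variance on the mean, for 17605 genes whose mean reached 10, called at a Benjamini-Hochberg adjusted p under 0.05. Fold changes are on that scale and slightly understate those of low genes. Alternatives were DESeq2 1.42.0, edgeR 4.0.16 quasi-likelihood and voom on the recovered reads, TMM scaling, library totals, pseudocounts of 0.5 and 5, no filter, a mean of at least 50, the replicate number as a block, and leaving out each mouse. The script was tested on simulated data.

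Named genes were the 4 genes described, Shank3, the tested genes within 1 Mb of Gpr85, up to 2 tested genes on each side of Gpr27 and Gpr173, the 5 most abundant and the 3 highest and 3 lowest orphan receptors by log2 difference, the 2 highest and 2 lowest transducer genes, the proposed partners and the 5 nearest profiles. One gene that this rule names is not reported here. The genes described and the lists were chosen with earlier results of these data known. Coding sequences were aligned with Biopython 1.88 (global, match 1, mismatch -1, gap opening -5, extension -0.5).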

Additional observations from a re-analysis of the deposited data

How the results depend on the processing

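The log2 differences of Gpr85 and 2610001J05Rik were 0.40 to 0.47 and 0.43 to 0.51 under the 16 alternatives each. Both were chosen for their rise in these libraries, with all TG values above all WT values. A positive sign with a mouse left out was therefore fixed in advance, and nothing is read from it. Gpr27 stayed negative (-0.17 to -0.03) and Gpr173 near 0, and neither passed the threshold, with lowest adjusted p-values of 0.742 and 0.921. Leaving out 1 mouse at a time moved Gpr173 between -0.0912 and 0.0465, and its sign turned in 3 of these. The number of genes called over the whole table was 1, but 5 without the filter on low values and 7 by DESeq2, and between 1 and 2 with a mouse left out (2 without TG replicate 2 or TG replicate 3). The median of the transducer genes turned from -0.03 to 0.02 without TG replicate 2. The causes were not tested. Deviations of same-numbered mice had correlations of 0.0474, 0.0163 and 0.0928, and pairs with unlike numbers had -0.125 to 0.0771. With so few mice this cannot show whether same-numbered mice shared a litter or a batch. With the replicate block 1 gene was called, the log2 difference of Gpr27 was -0.11 (limma, adjusted p = 0.872) and that of Gpr173 -0.01 (adjusted p = 0.993). With 3 mice a group, the intervals of Gpr27 and Gpr173 leave differences of up to about 0.29 and 0.19 on the log2 scale undetected.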
